A study of Homo sapiens with 16 samples.

Results

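Some nanopore reads of *EIF4G2* transcripts pass over an annotated splice site instead of using it. The 26952 reads of this kind came from 305152 reads that covered exactly the introns of their transcript or minigene, in 16 libraries, and they were chosen by the status of each intron: a read was taken when at least 1 of its introns left an annotated end, the 5′ or the 3′ splice site or both, unused. They made up 8.83% of all spanning reads. The same statuses therefore define the reads, and the shares below describe how such reads were distributed over patterns, minigenes and assays.

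Every library came from HEK293T cells, a human embryonic kidney line. Amplicons made by RT-PCR came from non-transfected cells (NT), which carry only the endogenous transcripts, and from cells given a plasmid with 1 of 4 minigenes (long, long_alt, short_1, short_1_alt) under a cytomegalovirus promoter, with 2 biological replicates per condition. The long minigene holds introns 15 to 20 and the short_1 minigene introns 15 to 18, and in the forms named alt, intron 17 ends with another allele of its 3′ splice site. Amplicons of short_1 and short_1_alt end at a primer in exon 19 and all others at a primer in exon 21, so the architectures also differ in primer. Direct RNA, sequenced without amplification, came from 1 library each of the long, short_1, delta_int19-20 (the long minigene without introns 19 and 20), mut5SS (the long minigene with the first 4 nt of intron 19 mutated), short_plus72nt (short_1 followed by the first 72 nt of intron 19) and short_plus72nt_mut5SS minigenes. All transfected cells also keep their own *EIF4G2* gene. Spanning reads numbered 22762 to 46089 in the RT-PCR libraries and 186 to 1546 in the direct RNA libraries, and the intervals given for single libraries are 95% Wilson intervals that cover counting error only. Amplified reads are not independent molecules. No defining marker of the cell line could be checked, because only *EIF4G2* reads were counted.

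The *EIF4G2* protein, also called DAP5, is a translation initiation factor related to eIF4G. An intron is removed when the spliceosome joins the 5′ splice site at its start to the 3′ splice site at its end. Most internal human exons are thought to be recognized as units, with the 3′ splice site before an exon and the 5′ splice site after it defined together, and when that pairing fails the exon is often left out. A different failure leaves the exon in but uses a nearby cryptic site, which lengthens or shortens it. Both outcomes leave a trace in a read: a skipped exon leaves the 3′ splice site of the intron before it and the 5′ splice site of the intron after it unused, whereas a cryptic site leaves 1 annotated site unused.

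The region lies on the minus strand of chromosome 11 (GRCh38), and exons 15 to 21 of the annotated transcript are all coding. Exon 16 (chr11:10800731-10800835) has 105 nt, exon 17 (chr11:10800432-10800647) 216 nt, exon 18 (chr11:10800090-10800348) 259 nt, exon 19 (chr11:10799552-10799756) 205 nt and exon 20 (chr11:10799213-10799424) 212 nt. Intron 18 (chr11:10799757-10800089) is the longest of the 6 introns, with 333 nt, and the others have 83 to 127 nt. Loss of exon 17 alone removes a multiple of 3 nt and keeps the reading frame, as does loss of exons 19 and 20 together, 417 nt. Loss of exon 19 alone, of exons 17 and 18 (475 nt), of exons 17 to 19 (680 nt) or of exons 17 to 20 (892 nt) shifts it.

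The 5′ splice sites of the reference are given below. A frequent pattern of the long minigenes turns on that of intron 18, and a minigene mutation turns on that of intron 19. Each run holds the last 3 nt of the exon and the first 6 nt of the intron, 5′ to 3′ on the transcribed strand, with the first 2 nt of the intron in capitals.
5′ splice site of intron 16, chr11:10800725-10800733: actGTaagt
5′ splice site of intron 17, chr11:10800426-10800434: cagGTagga
5′ splice site of intron 18, chr11:10800084-10800092: cagGTaaga
5′ splice site of intron 19, chr11:10799546-10799554: tagGTaaga
5′ splice site of intron 20, chr11:10799207-10799215: aagGTgaga
The sites of introns 18 and 19 share their 6 intronic nt in this window.

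The 3′ splice sites are given because the patterns that lose exon 17 differ in which of them exon 16 was joined to. Each run holds the last 20 nt of the intron and the first 3 nt of the exon, with the last 2 nt of the intron in capitals.
3′ splice site of intron 16 (start of exon 17), chr11:10800645-10800667: gatacttgtgttcttcacAGgaa
3′ splice site of intron 17 (start of exon 18), chr11:10800346-10800368: tgttgtatatttctttcaAGgct
3′ splice site of intron 18 (start of exon 19), chr11:10799754-10799776: aggtggctttgtctcttcAGaaa
3′ splice site of intron 19 (start of exon 20), chr11:10799422-10799444: caagacctctttctgtccAGctt
3′ splice site of intron 20 (start of exon 21), chr11:10799111-10799133: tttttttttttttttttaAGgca
Of the last 20 intronic nt, 12 are pyrimidines before exons 17 and 19, 13 before exons 18 and 20, and 17 before exon 21.

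In the RT-PCR libraries, reads with a skipped site were common in the minigenes that hold introns 19 and 20 and rare elsewhere. They made up 19.5% and 12.1% of spanning reads in the 2 long replicates and 19.0% and 17.05% in long_alt. For short_1 the shares were 2.38% and 2.12%, for short_1_alt 1.65% and 1.60%, and for NT 1.71% and 1.41%. All 4 libraries of the long and long_alt minigenes lay above the other 6 libraries. Amplicons of short_1 and short_1_alt end in exon 19 and cannot show losses that reach exon 19 or 20. Most short_1 and short_1_alt reads retain intron 18, and without reads that retain an intron the means were 4.29% for short_1, 4.49% for short_1_alt and 1.56% for NT, so that the order of the short minigenes turned and both lay above NT. The reads of a library were spread over 45 to 185 different combinations of statuses, yet the 3 most frequent combinations held 68.8% to 75.5% of the skipped reads in the long and long_alt libraries.

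**Figure D1:**
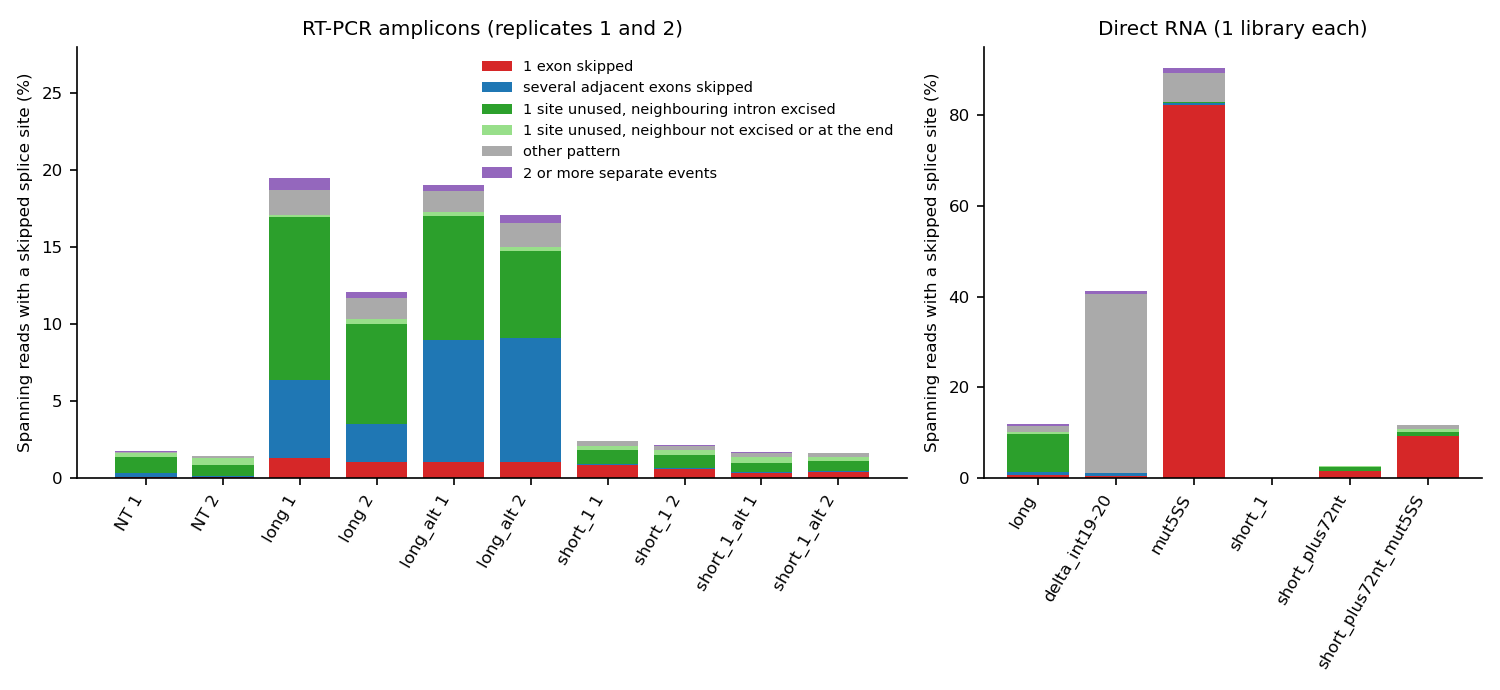
Stacked bars give the percent of spanning reads that carry a skipped splice site, by pattern class, for the 10 RT-PCR libraries (left, replicates 1 and 2 of each condition) and the 6 direct RNA libraries (right, 1 library each, on its own scale). In long and long_alt the bars reach 12.1% to 19.5% and consist mainly of 1 unused site and of several adjacent exons skipped, whereas mut5SS reaches 90.6%, nearly all of it a single skipped exon.

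Each read was put in 1 class. A single unused site with the neighbouring intron excised made up 8.56% ± 2.89 of spanning reads in long and 6.85% ± 1.76 in long_alt, and several adjacent exons were skipped in 3.74% ± 1.84 and 7.98% ± 0.138 (SD, n = 2 each). A single exon was skipped in 1.18% ± 0.192 and 1.03% ± 0.00812. In the first long_alt replicate the single unused site was above adjacent exons (8.10% against 7.89%). In the second long_alt replicate it was below them (5.61% against 8.08%). In short_1 and short_1_alt, as in long, the single unused site was the largest class, at 0.877% ± 0.0674 and 0.581% ± 0.0484. A single skipped exon followed at 0.698% ± 0.156 and 0.351% ± 0.0439. Skipping of adjacent exons was at 0.0709% ± 0.000681 and 0.0647% ± 0.00453, but an amplicon that ends in exon 19 cannot show losses that reach exon 19 or 20. The first long replicate held more skipped reads than the second in the classes of 1 unused site (10.6% against 6.52%) and of adjacent exons (5.04% against 2.44%), so that values for long below are given for both replicates. Replicates differed by more than counting error in all 5 conditions, with a chi-square of 3.61 to 24.0 per degree of freedom over the skipped combinations, and none was a repeat of another.

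In long and the first long_alt replicate, the most frequent pattern was replacement of the 5′ splice site of intron 18, the end of exon 18. In these reads intron 17 was excised and exon 19 began at its usual place, but the join started at another position than cagGTaaga. The pattern made up 10.3% and 6.19% of spanning reads of long and 7.32% and 4.71% of long_alt. It made up 0.690% and 0.533% for short_1, 0.349% and 0.426% for short_1_alt, and 0.732% and 0.328% for NT. The lowest long or long_alt library (4.71%) lay above the highest of the other 6 (0.732%). The counts do not give the position of the site used instead, so it cannot be said here whether exon 18 became shorter or longer. In the second long_alt replicate, loss of exons 17 to 20 (5.81%) was more frequent than this replacement. In short_1, loss of exon 17 alone was (0.818% and 0.594%). In NT, an unused 3′ splice site of intron 20 with all other introns excised made up 0.222% and 0.371%. It was the most frequent combination in the second NT replicate.

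Both kinds of amplicon hold exons 16 to 18, so the 4 libraries with introns 19 and 20 were set against the 4 without them in a two-sided exact permutation test, where the smallest possible p is 0.0286. Each group of 4 holds 2 libraries of each allele. In this comparison, here and below, labels were exchanged over all 8 libraries without regard to allele. Some of the patterns differed by allele, and a test within alleles was not run. The summed share of reads with 1 unused site among the 5′ splice sites of introns 16 to 18 and the 3′ splice sites of introns 15 to 17 was 7.62% ± 2.21 with introns 19 and 20 and 0.736% ± 0.178 without them (SD, n = 4 each), a difference of 6.89 points (exact permutation test, p = 0.0286). Of that difference, 6.63 points came from the 5′ splice site of intron 18. Among the 12 patterns compared in this way, the 5′ splice site of intron 18 and the joint loss of exons 17 and 18 gave an unadjusted p of 0.0286, 2 of 12 (16.7%), both higher in the long minigenes. None of the 12 passed after Benjamini-Hochberg adjustment, since the smallest p that 8 libraries allow became 0.171 for these 2 patterns.

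Most spanning reads of short_1 and short_1_alt retain intron 18 and so cannot show which 5′ splice site its excision would use. The share was therefore also taken over reads with intron 17 excised that used the 3′ splice site of intron 18, a denominator chosen after the values were seen. Among these, another 5′ splice site was used in 11.4% and 6.77% of long reads and 8.62% and 5.84% of long_alt reads. The shares were 1.96% and 1.93% for short_1, 1.76% and 2.34% for short_1_alt, and 0.759% and 0.337% for NT. The mean was 8.16% ± 2.45 with introns 19 and 20 and 1.996% ± 0.245 without (SD, n = 4 each), a ratio of 4.09, and the groups did not overlap (two-sided exact permutation test, p = 0.0286, not adjusted). On this scale short_1 and short_1_alt lay above both NT libraries, which they did not on the scale of all spanning reads.

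The use of another 5′ splice site was not limited to joins with the start of exon 19. When exon 18 was joined to exon 20 so that exon 19 was lost, another 5′ splice site was used in 10.6% and 9.14% of such reads in long (188 and 186 reads) and in 10.9% and 8.65% in long_alt (313 and 208 reads). In mut5SS direct RNA, where this join is the main product, the share was 7.04% (97 of 1378 reads, 5.80% to 8.51%). Joins to exon 21 were few, 20 to 39 reads per library, with 8.33% to 23.1% from another 5′ splice site. The intervals of the joins to exon 20 ran from 5.54% to 15.9% over these 5 libraries, and each overlapped the range of 5.84% to 11.4% found for the joins to exon 19 in long and long_alt.

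Joins of exon 18 to an unannotated 3′ site were rare in long and long_alt, 28 to 46 reads per library, and frequent in delta_int19-20. In long and long_alt they leave the 3′ splice site of intron 18 and both sites of intron 19 unused, with the junction of exons 20 and 21 in place. The delta_int19-20 plasmid lacks introns 19 and 20. There intron 19 has no splice sites to use, and the junction of exons 20 and 21 is given by the plasmid. In long and long_alt, 21.4% to 34.1% of these joins started from another 5′ splice site, against 5.94% (6 of 101 reads, 2.75% to 12.4%) in delta_int19-20. Shorter reads of delta_int19-20 that start after intron 15 gave 11.5% (10 of 87, 6.36% to 19.9%). The interval of the spanning delta_int19-20 reads lay below the values of all 4 RT-PCR libraries but overlapped the interval of the second long replicate (10.2% to 39.5%), and assay and minigene cannot be told apart in this contrast.

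**Figure D2:**
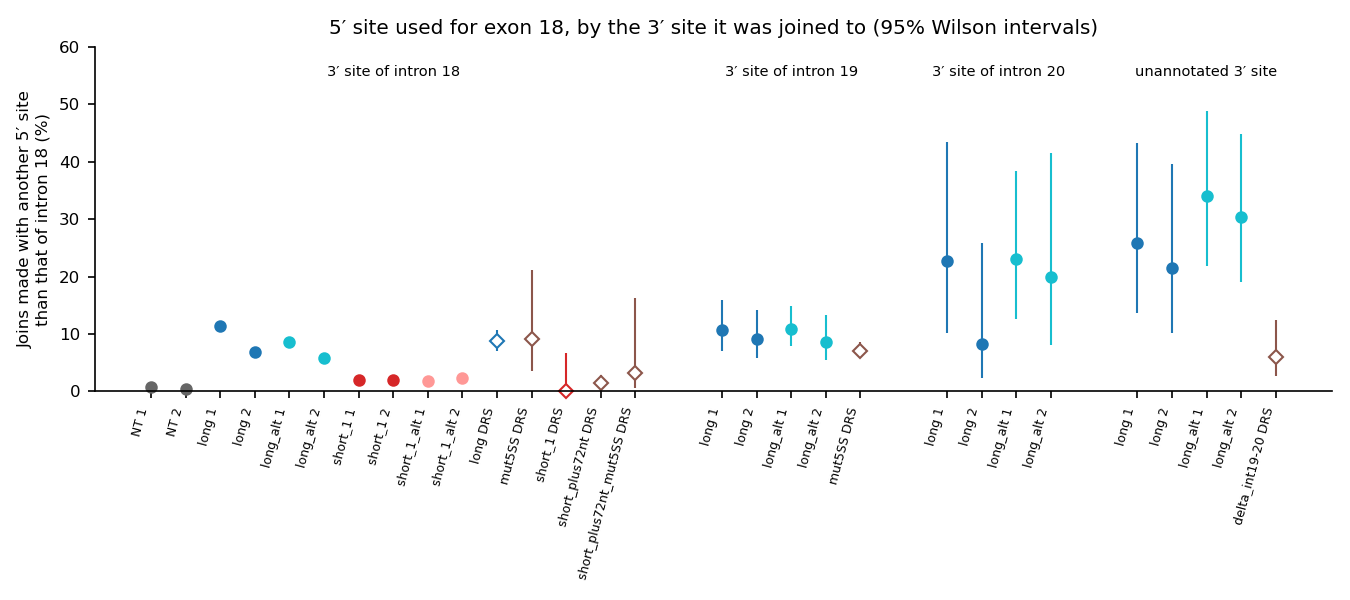
Points give the percent of joins from exon 18 that were made with another 5′ site than that of intron 18, by the 3′ site joined (4 blocks); circles are RT-PCR libraries, open diamonds direct RNA libraries, and bars 95% Wilson intervals, and only libraries with at least 20 such reads are drawn. For joins to the 3′ site of intron 18 the long and long_alt libraries sit between 5.84% and 11.4% and the short_1 and short_1_alt libraries between 1.76% and 2.34%.

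The other frequent patterns in the long minigenes lost exon 17 together with the exons after it. Exon 16 was joined to exon 21, without exons 17 to 20, in 3.85% and 1.65% of spanning reads in long and in 5.37% and 5.81% in long_alt, against 0.189% and 0.0541% in NT. Exons 17 to 19 were lost in 0.742% and 0.480% in long, 1.77% and 1.57% in long_alt, and 0.0165% and 0% in NT. Both patterns were higher in each long_alt library than in each long library and lowest in NT. An amplicon that ends in exon 19 cannot show either of them, so they have no value in short_1 and short_1_alt.

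Loss of exons 17 and 18, which both amplicons can show, made up 0.250% and 0.170% in long and 0.514% and 0.531% in long_alt. It made up 0.0208% and 0.0184% in short_1 and 0.0259% and 0.0220% in short_1_alt. All 4 libraries with introns 19 and 20 lay above all 4 without them, and 1 NT replicate held 0.0108% and the other none. Summed over all losses of adjacent exons within exons 16 to 18, the share was 0.441% ± 0.174 against 0.0686% ± 0.00476 (SD, n = 4 each; difference 0.372 points, two-sided exact permutation test, p = 0.0286). Without reads that retain an intron the difference was 0.250 points (p = 0.0571 in the same exact test).

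For exon 17 alone, meaning that no neighbouring exon was lost with it, the architectures overlapped. It was skipped in 1.01% and 0.657% of spanning reads of long and 0.343% and 0.442% of long_alt. In the short minigenes the values were 0.818% and 0.594% (short_1) and 0.285% and 0.378% (short_1_alt). The means were 0.612% ± 0.293 and 0.519% ± 0.238 (SD, n = 4 each; difference 0.0931 points, two-sided exact permutation test, p = 0.629). NT held 0.0165% and 0.0108%, below every minigene library.

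Summed over exons 16 to 18, skipping of 1 or more exons was found in 1.17% ± 0.210 with introns 19 and 20 and 0.602% ± 0.228 without (SD, n = 4 each; difference 0.569 points, two-sided exact permutation test, p = 0.0286). Skipping of a single one of these exons was at 0.730% ± 0.218 and 0.533% ± 0.226 and did not pass (two-sided exact permutation test, p = 0.257). A read with separate events counts for each of them, and only the long amplicons can hold a second event at exons 19 and 20. When reads with several events were not counted, the summed difference was 0.256 points and did not pass (two-sided exact permutation test, p = 0.143), and without reads that retain an intron it was 0.331 points (p = 0.0571 in the same exact test).

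Exons 16, 18 and 20 were seldom lost on their own. Exon 16 alone was missing in at most 0.0148% of spanning reads of any RT-PCR library, and exon 20 alone in at most 0.0475%. Exon 18 alone was missing in 0.210% and 0.170% in long_alt, in 0.0345% and 0.0148% in long and in at most 0.0291% elsewhere. Exon 19 alone was lost in 0.941% and 0.830% in long and 0.764% and 0.840% in long_alt, 4 values close to each other, and in 0.0411% and 0.0396% in NT.

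**Figure D3:**
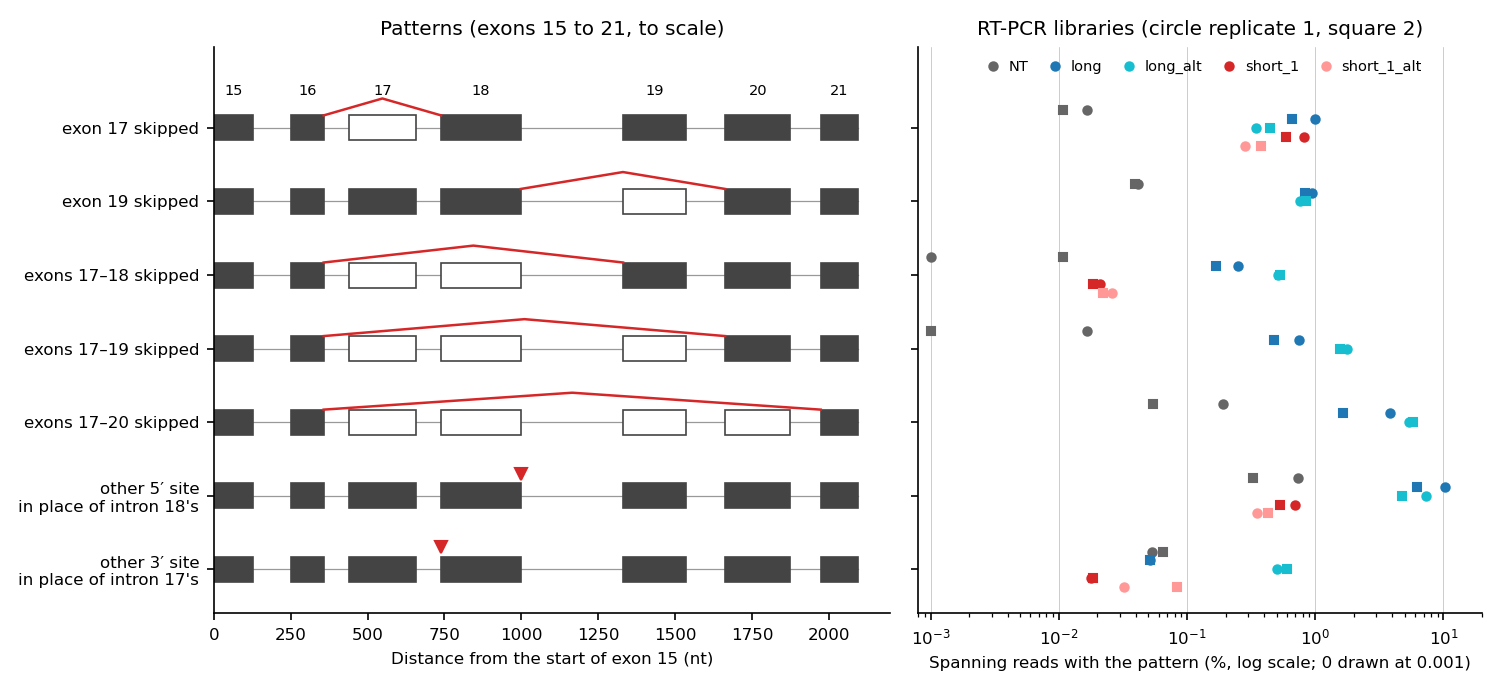
The left panel draws exons 15 to 21 to scale in nt with skipped exons as open boxes, joins as red lines and an unused site as a red triangle; the right panel gives the percent of spanning reads with that pattern in each RT-PCR library on a log scale (circles replicate 1, squares replicate 2, 0 drawn at 0.001, short minigenes left out where their amplicon cannot show the pattern). Loss of exon 17 alone lies at 0.594% and 0.818% in short_1 and at 0.657% and 1.01% in long, whereas the other 5′ site of intron 18 is higher in long and long_alt (4.71% to 10.3%) than in all other libraries (0.328% to 0.732%).

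The same region can be compared with endogenous transcripts through NT, which shares introns 15 to 20 and the reverse primer with long and long_alt but not the promoter or the forward primer. In all 9 quantities compared, the 4 minigene libraries lay above both NT libraries. These quantities share reads, since a read without exons 17 to 20 counts for each of those exons and for adjacent exons. Any skipped site was found in 16.9% ± 3.38 (SD, n = 4) against 1.56% ± 0.211 (SD, n = 2), and a single unused site in 7.71% ± 2.19 against 0.877% ± 0.221. Adjacent exons were skipped in 5.86% ± 2.67 against 0.147% ± 0.112, and exon 19, alone or with others, was lost in 6.35% ± 2.48 against 0.184% ± 0.118. With 4 libraries against 2, every one of these gave the smallest p the design allows (two-sided exact permutation test, p = 0.133), which is above 0.05. The minigene shares are of RT-PCR amplicons. In direct RNA of long (1 library), adjacent exons were skipped in 0.609% (0.279% to 1.32%). Exon 19, alone or with others, was lost there in 0.913% (0.481% to 1.73%). Any skipped site made up 11.9% of that library and a single unused site 8.32%.

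The alt minigenes differ at the end of intron 17, and the share of reads that leave its 3′ splice site unused in any pattern was compared between alleles within each architecture. Reads of this kind made up 6.19% and 3.43% with the reference allele (long) and 9.62% and 10.1% with the alternative one (long_alt), a difference of 5.03 points. The short minigenes gave 0.283% and 0.300% (short_1) and 0.369% and 0.426% (short_1_alt), a difference of 0.106 points. The alternative allele was higher in both architectures without overlap, and the p was the smallest that exchange of the labels within architectures allows (two-sided exact permutation test, p = 0.0556).

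In the long minigenes the difference lay mostly in losses of exon 17 with the exons after it. Loss of exons 17 to 20 was at 5.59% ± 0.307 in long_alt and 2.75% ± 1.56 in long, and loss of exons 17 to 19 at 1.67% ± 0.144 and 0.611% ± 0.186 (SD, n = 2 each; two-sided exact permutation test, p = 0.333 for both, the smallest that 2 against 2 allows). There was no direct RNA library of long_alt. For long, the RT-PCR mean of loss of exons 17 to 20 was 13.6 times the direct RNA share. Exon 18 alone was skipped more in long_alt (0.210% and 0.170%) than in long (0.0345% and 0.0148%), and in short_1_alt (0.0291% and 0.00439%) than in short_1 (0% and 0.00306%). A replacement for the end of intron 17, with intron 18 excised, was used in 0.508% and 0.599% of reads in long_alt against 0.0518% and 0.0516% in long, and in 0.0323% and 0.0835% in short_1_alt against 0.0178% and 0.0184% in short_1. Loss of exon 17 alone uses that site and so is no part of the share, and it was lower by 0.439 points in long_alt than in long and by 0.375 points in short_1_alt than in short_1. Each of these differences had the same sign in both architectures without overlap, and each gave a two-sided exact permutation p of 0.0556, the smallest possible. For exon 18 alone in the short minigenes the lack of overlap rests on 1 read in each of the second replicates, under the limit of 3 counts. These 3 patterns were chosen after their values were seen.

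Reads in which exon 16 skipped exon 17 give the exon it was joined to in its place. In long, 17.2% and 22.2% of these reads (1356 and 800 reads) were joined to exon 18, 4.28% and 5.75% to exon 19, 12.7% and 16.2% to exon 20 and 65.9% and 55.8% to exon 21. In long_alt (3688 and 2702 reads), exon 18 was the partner in 4.28% and 5.29%, exon 19 in 6.43% and 6.37%, exon 20 in 22.1% and 18.8% and exon 21 in 67.2% and 69.6%. The share of exon 18 was thus lower with the alternative allele, and the shares of exons 19, 20 and 21 were each higher in both long_alt libraries than in both long libraries. In unamplified RNA of the long minigene the order was turned: exon 18 was the partner in 6 of 10 such reads (60%, 31.3% to 83.2%) and exon 21 in 2 of 10 (20%, 5.67% to 51.0%), and the RT-PCR shares of long for both lay outside these intervals. In short_1, 97.5% and 97.0% were joined to exon 18, and in short_1_alt 91.7% and 94.5% (96 and 91 reads). The share joined to exon 18 was lower with the alternative allele without overlap in both architectures, with a mean difference of -9.55 points and the smallest p the design allows (two-sided exact permutation test, p = 0.0556, chosen after values were seen).

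**Figure D4:**
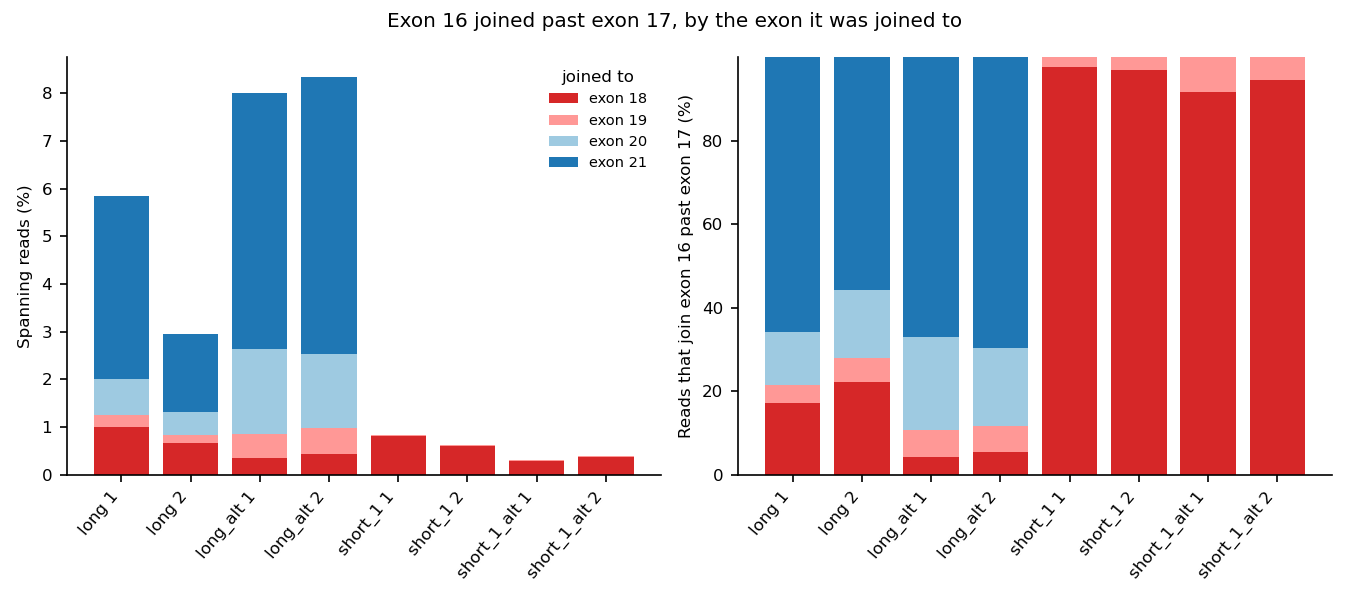
Stacked bars give, for each RT-PCR minigene library, the reads in which exon 16 was joined past exon 17, coloured by the exon it was joined to, as percent of spanning reads (left) and as percent of such joins (right). Exon 21 takes 55.8% to 69.6% of the joins in long and long_alt, and exon 18 takes 4.28% and 5.29% in long_alt against 17.2% and 22.2% in long; direct RNA of the long minigene, not drawn, had 6 of 10 such joins at exon 18.

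In the short minigenes, upstream skipping and retention of intron 18 could be read from the same molecules. Among short_1 reads with a skipped site only at introns 15 to 17, intron 18 was retained in 58.0% and 65.2%, against 63.9% and 71.7% of reads with no skipped site. In short_1_alt the shares were 70.2% and 68.9% against 79.2% and 80.8%. Retention was lower beside a skipped site in all 4 of these libraries, and in 2 of the 4 long and long_alt libraries, where it was 0.892% to 5.25% without a skipped site. Beside loss of exon 17 alone, retention was 61.3% and 72.4% in short_1 and 65.5% and 73.3% in short_1_alt. The second short_1 replicate thus lay above its share without a skipped site. For any skipped site at introns 15 to 17, the mean difference over the 8 minigene libraries was -4.52 points (two-sided exact sign-flip permutation test, p = 0.0391). Leaving out any 1 of the 6 libraries of long_alt, short_1 and short_1_alt gave p of 0.0625 to 0.0781 in the same exact test. In direct RNA, retention beside such a skipped site was 55% (11 of 20) against 54.3% without one in short_plus72nt, and 68.4% (13 of 19) against 80.8% in short_plus72nt_mut5SS. On the scale of log odds the p was 0.117, and over the 4 short libraries alone, where the mean was -8.34 points, the smallest possible p is 0.125.

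Direct RNA was read without PCR, in 1 library per minigene and without a replicate check. In the long minigene the other 5′ splice site of intron 18 made up 8.01% of reads (79 of 986, 6.48% to 9.87%), between the RT-PCR replicates of 10.3% and 6.19%, and the ratio of the RT-PCR mean to the direct RNA value was 1.03. Exon 17 alone (0.609%, 6 reads) and exon 19 alone (0.406%, 4 reads) gave ratios of 1.37 and 2.18. Loss of exons 17 to 19 was found in 2 reads and loss of exons 17 to 20 in 2 reads, 0.203% each (0.0556% to 0.737%), with ratios of 3.01 and 13.6. The RT-PCR values of 3.85% and 1.65% for loss of exons 17 to 20 both lay above the direct RNA interval. The ratio was thus highest for the pattern that removes the most nt, 892, and close to 1 for the pattern that loses no exon, and the part of amplicon length in this was not tested.

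**Figure D5:**
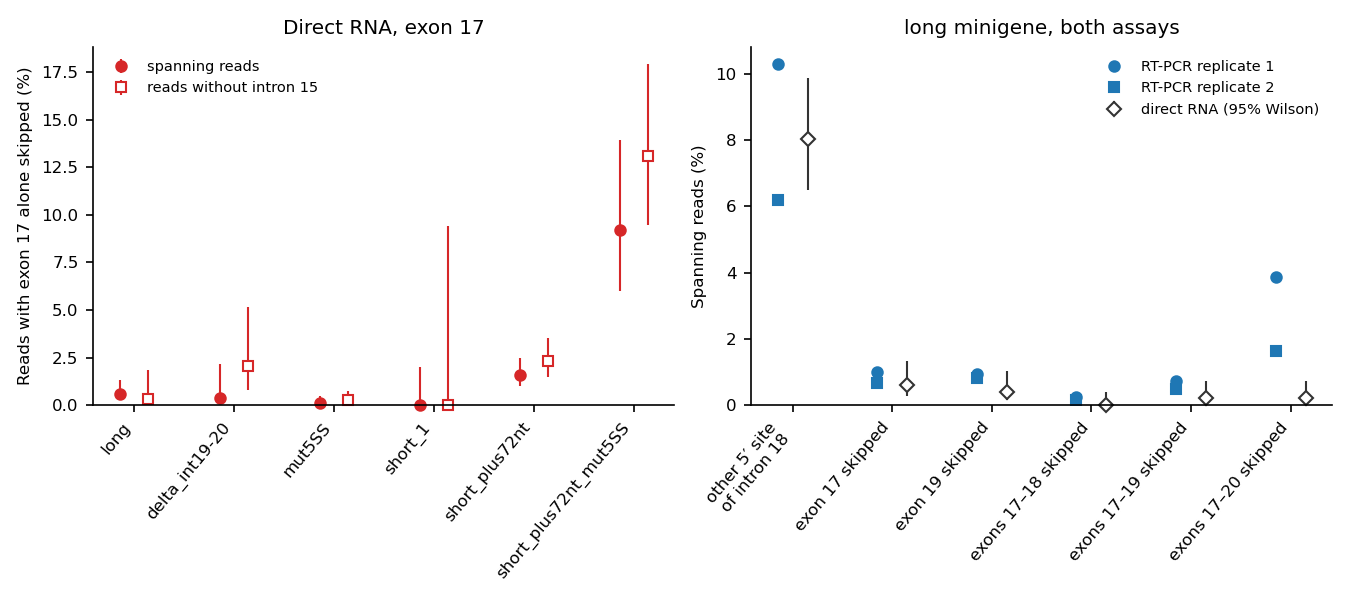
The left panel gives the percent of direct RNA reads with exon 17 alone skipped in 6 minigenes, for spanning reads (filled circles) and for shorter reads that start after intron 15 (open squares); the right panel sets the patterns of the long minigene in 2 RT-PCR replicates beside direct RNA (open diamonds), with 95% Wilson intervals. Loss of exons 17 to 20 is at 3.85% and 1.65% in RT-PCR and at 0.203% in direct RNA, and loss of exon 17 reaches 9.22% in short_plus72nt_mut5SS.

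The minigenes with altered 5′ splice sites differed in which exon was lost. In mut5SS, 90.6% of reads had a skipped site (1400 of 1546, 89.0% to 91.9%), and exon 19, the exon before the mutated site, was lost alone in 83.2% (81.2% to 85.0%). The same loss was at 0.406% in the long library (0.158% to 1.04%). Another 98 reads of mut5SS, 6.34%, lost exon 19 and also used another 5′ splice site for exon 18. Exon 17 alone was lost in 2 of 1546 reads, 0.129% (0.0355% to 0.470%), and the 5′ splice site of intron 18 was replaced before the start of exon 19 in 4 reads, 0.259%, all with intron 19 undetermined. Only 44 reads used the 3′ splice site of intron 18 after excision of intron 17, so that these 4 were 9.09% of such joins (3.59% to 21.2%), beside 8.72% (7.05% to 10.7%) in long direct RNA.

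In delta_int19-20, 41.3% of reads had a skipped site (107 of 259, 35.5% to 47.4%), and 96 of them, 37.1% of the library, joined the end of exon 18 to the unannotated 3′ site. Exon 17 was lost alone in 1 read and exons 19 and 20 in 2 reads. Reads with the usual class of 1 unused site beside an excised intron were not seen, which allows a share of up to 1.16%. Of the 152 reads with no skipped site, 147 retained intron 18. Few reads could therefore show another 5′ splice site joined to the start of exon 19.

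In the short minigenes with added sequence, loss of exon 17 alone was the most frequent pattern. The short_1 library held no read with a skipped site among 186, which allows a share of up to 1.61%. Amplicons of short_1 made by RT-PCR lost exon 17 alone in 0.818% and 0.594%. In short_plus72nt a skipped site was found in 2.67% (32 of 1200, 1.90% to 3.74%), and in short_plus72nt_mut5SS in 11.7% (24 of 206, 7.96% to 16.7%). Exon 17 alone was lost in 1.58% (19 of 1200, 1.02% to 2.46%) and 9.22% (19 of 206, 5.98% to 13.96%). The intervals of these last 2 values do not overlap, but the value of short_plus72nt lies under the limit of short_1. All 19 joins of exon 16 past exon 17 in each of the 2 minigenes with added sequence reached exon 18. The mutated site lies after exon 19, and exon 17 is 2 exons upstream of it. Among those of them with no other skipped site and a determined status of intron 18, 64.7% (11 of 17) and 72.2% (13 of 18) retained intron 18, beside 54.3% and 80.8% of the reads with no skipped site in the same libraries. The other 5′ splice site of intron 18 was found in 8 and 1 reads.

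Endogenous transcripts in the same direct RNA libraries were identified by reads over all 21 introns, 359 reads in all. Of these, 10 had a skipped site at introns 15 to 20, 2.79% (1.52% to 5.05%), and 7 of the 10 replaced the 5′ splice site of intron 18, 5 of them in the short_plus72nt library. None lost exon 17 alone, which allows up to 0.836%, and 1 lost exon 19 alone.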

How the data were processed

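For RT-PCR amplicons the authors basecalled nanopore reads with guppy (version 6.5.7), and for direct RNA they used MinKNOW or Dorado (version 0.7.3). They aligned reads to GRCh38 with minimap2 (version 2.28, spliced mode), kept uniquely mapped reads, read each intron's status from the alignment and deposited raw counts of reads per combination of introns and statuses (excised, retained, undetermined, or skipped at either end or at both ends). Groups come from the labels.

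Reads listing exactly the introns of the construct were kept, undetermined ones included in the denominator. The partial intron 19 of the 2 minigenes with 72 nt added was not scored. A run of skipped statuses from an unused 3′ to an unused 5′ splice site was called a skipped exon or skipped adjacent exons. Patterns were named mainly when they reached 0.5% of spanning reads in a library, and exons 16, 18 and 20 alone were added to complete the set. Not every pattern that reached 0.5% or was among the 3 most frequent combinations of a library is named. Library percentages, each of equal weight, went into two-sided exact permutation tests at a threshold of 0.05. A share of 0 was given the limit of 3 counts in direct RNA and was left as 0 in the RT-PCR libraries. Python 3.11.15 and SciPy 1.17.1 were used. The classification was tested on 10 simulated patterns with known events, and 0 were misread. Coordinates and sequences come from hg38 and GENCODE v44, where the transcript with the same introns was used. The sequence of the plasmids and of the alternative allele was not used here. The patterns and lists were chosen with earlier results of these data known. The alternatives were other sets of reads, minimum counts, each replicate left out, a replicate block and log odds.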

Additional observations from a re-analysis of the deposited data

Results flagged for a closer look

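Direct RNA reads that start after intron 15 and reach the last intron of the minigene were not used to choose the reads described above. In 6 flagged cases they held a named pattern above the limit that 3 counts allow. In short_plus72nt_mut5SS, exon 17 alone was lost in 13.1% of them (32 of 244, 95% Wilson interval 9.45% to 17.9%), against 2.30% in short_plus72nt (20 of 868, 1.496% to 3.53%), and the intervals again do not overlap. Most other patterns did not exceed that limit, such as loss of exon 17 alone in long (1 of 301). In short_1 it was lost in 0 of 37, which allows up to 8.11%. In delta_int19-20 it was lost in 2.06% (4 of 194, 0.805% to 5.18%). In mut5SS, exon 19 alone was lost in 82.3% (992 of 1206, 80.0% to 84.3%). Loss of exons 19 and 20 together in mut5SS (5 of 1206, 0.415%, 0.177% to 0.967%) was also above its limit of 0.249%, though not among the 6 flagged cases. The 5′ splice site of intron 18 was replaced in 11.6% in long (35 of 301, 8.48% to 15.7%) and in 0.806% in short_plus72nt (7 of 868, 0.391% to 1.66%). These reads come from the same libraries and are no replicates of them.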

How the results depend on the processing

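Of 73 results recomputed, 27 had a test, under 700 alternatives in all. Leaving out 1 library (7 libraries) or exchanging labels only within replicate numbers cannot give p at or under 0.05 in the comparison of architectures by construction, so the loss of a call there says nothing about stability. With the replicate block the differences were the same, 0.569 points for exon skipping within exons 16 to 18, 0.372 for adjacent exons and 6.89 for 1 unused site, each with an exact permutation p of 0.0556, and -4.52 points for retention of intron 18, with p = 0.5, the smallest that flips of 2 replicate numbers allow. Replicate numbers are shared names only, and the deviations of same-numbered libraries correlated from -0.880 to 0.993 over 10 pairs of conditions. Leave-one-out ranges were 0.485 to 0.666, 0.323 to 0.444 and 5.91 to 7.59 points.

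Exon skipping within exons 16 to 18 lost its call with combinations under 2 reads (0.558) or under 10 reads (0.524) left out, with reads retaining an intron left out (0.331) and with reads of several events not counted (0.256). Adjacent exons lost it with reads retaining an intron left out (0.250). The share with 1 unused site kept its call under all alternatives other than the block and leave-one-out. The difference of retention of intron 18 was -0.266 on the log odds scale, without a call, and -5.25 to -3.47 points with 1 library left out. Differences that had not passed changed sign: for a single skipped exon -0.0894 and for exon 17 -0.190 with reads of several events not counted, for exon 17 from -0.0382 (without long replicate 1) to 0.193 with 1 library left out, for exons 16 and 17 -0.0323 and for the 3′ splice site of intron 15 -0.00179 without reads retaining an intron, for the 5′ splice site of intron 17 0.00783 with combinations under 10 reads left out, and for the 3′ splice site of intron 16 0.0460 on the log odds scale. With 1 library left out, the difference for the 3′ splice site of intron 16 ranged from -0.0207 to 0.0188 and that of intron 15 from -0.00263 to 0.00826. Without a call as reported, exons 16 and 17 gave 0.0494 with combinations under 10 reads left out and exons 16 to 18 gave -0.0116 without reads retaining an intron, each with an unadjusted exact permutation p of 0.0286. Without reads retaining an intron, the share with 1 unused site became 2.258% in short_1 and 2.281% in short_1_alt, adjacent exons 0.171% and 0.240%, and any skipped site 95.5% in delta_int19-20 and 27.5% in short_plus72nt_mut5SS. In mut5SS any skipped site was 83.9% with longer reads allowed. In all, 54 descriptive shares moved by more than their error, many of them on leaving out rare combinations. The cause of these changes was not tested. Direct RNA libraries of 186 to 259 spanning reads give a limit of 1.16% to 1.61% for a pattern with no read.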
